A study of Mus musculus with 12 samples.

Results

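Mitosis and kinetochore genes encode the proteins that condense the chromosomes, build the spindle, attach each chromosome to it and divide the cell. Cyclin A2, the B cyclins and their partner kinase Cdk1 drive entry into mitosis, the kinetochore couples the centromere to spindle microtubules, and the spindle checkpoint holds back the anaphase-promoting complex until every chromosome is attached. The mRNA of most of these genes is made in the late part of the cell cycle. In a population of dividing lymphocytes the level of that mRNA therefore depends in part on how many cells are cycling. The 57 genes described here were taken by symbol from a list of such genes arranged in 8 roles, and all 57 were among the 11022 genes of the deposited expression table.

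The study asked which mRNA in effector CD8+ T cells respond to the antigen receptor, and which of these responses need the kinase PI3K p110δ or the kinase MEK. Cytotoxic T lymphocytes (CTL) were grown from LCMV-P14 TCR transgenic mice, female and 9 to 13 weeks old per the study's methods, whose T cell receptor recognises the gp33 peptide of lymphocytic choriomeningitis virus. Cells were activated for 48 h and kept in interleukin 2 for 5 days, and every group then had interleukin 2 at 20 ng per mL. Messenger RNA was sequenced in 12 cultures, 3 in each of 4 groups. The Unstimulated group had no peptide. The TCR group had gp33 peptide at 100 ng per mL for 4 h. The TCR + PI3Kdi group had the same peptide together with 10 µM IC87114, an inhibitor of PI3K p110δ. The TCR + MEKi group had the same peptide together with 2 µM PD184252, an inhibitor of MEK. DMSO was the vehicle per the methods. All groups carried the same transgenic receptor, and no group had an inhibitor without peptide. Cells of 3 mice gave the replicates, numbered 1 to 3 in every group.

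The values were FPKM, fragments scaled by the length of a gene's exons and the size of the library, so they are per length. Read totals were not given, and the steps between low values put the effective depth at roughly 6640000 to 13200000 reads per culture. The member value with the fewest reads then rested on about 78 (Cenpm, centromere protein M, at 5.99 FPKM), and the median value on about 771. Of the CTL marker genes 8 were measured, and they summed to 11210 to 12305 FPKM in Unstimulated and to between 16258 and 18773 FPKM in the other groups. Most of the sum was Gzmb, which averaged 8740 FPKM in Unstimulated and 13005 FPKM in TCR. In TCR against Unstimulated, 5 of the 8 were higher by the limma test below, against 33.6% of all genes. Cd3e and Cd3g, 2 of the 8, were lower (log2 fold changes -0.17 and -0.33), against 34.9% of all genes. Of 5 dendritic cell markers looked up, 2 were measured, Itgax and Zbtb46. They summed to 0.32 to 0.51 FPKM in Unstimulated and to between 2.49 and 4.28 FPKM after peptide. The rise was that of Zbtb46, which averaged 0.027 FPKM in Unstimulated, 3.49 in TCR, 1.97 with PI3Kdi and 3.11 with MEKi. Itgax averaged 0.41, 0.53, 0.58 and 0.41 FPKM in the same order. The 2 CD4 T cell markers moved in opposite directions: Cd4 averaged 0.773 FPKM in Unstimulated, 2.69 in TCR, 2.94 with PI3Kdi and 0.450 with MEKi, and Zbtb7b averaged 7.37, 5.29, 3.92 and 9.95 FPKM. Their part in the results was not tested. For B cells 5 markers were looked up, for myeloid cells 6 and for erythroid cells 4, and 0 of these were among the genes analysed here.

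The first comparison, TCR against Unstimulated, shows what 4 h of antigen did to mitotic mRNA in CTL kept in interleukin 2. The 57 mRNA together made up 0.415% to 0.441% of all FPKM in the Unstimulated cultures and 0.147% to 0.169% in the TCR cultures. The sum over all genes, the divisor of these shares, rose, while the summed FPKM of the 57 mRNA averaged 2053 in Unstimulated and 1024 in TCR. Their median level was between 26.8 and 29.9 FPKM in Unstimulated and between 12.3 and 13.4 FPKM in TCR, and the groups did not overlap. In this bulk RNA, fewer cells in mitosis and less mRNA per cell cannot be told apart.

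Each gene was tested with limma on log2(FPKM + 0.1) across all 11022 genes, with Benjamini-Hochberg adjusted p. A gene is said below to have fallen or risen at an adjusted p under 0.05, and to have been called when the change was also more than 2-fold, the threshold of the study. Of the 57 genes, 40 were called lower in TCR (70.2%), against 11.1% of all genes, and 0 were called higher, against 8.87% of all genes. Without the fold threshold 55 fell (96.5%), against 34.9% of all genes, and 0 rose in the limma test with or without adjustment, against 33.6% of all genes at the adjusted threshold. The 3 TCR cultures lay below all 3 Unstimulated cultures for 55 of the 57, against 36.5% of all genes. The median log2 fold change of the 57 was -1.17, against -0.01 over all genes, and over the fits that each left out a culture it stayed between -1.22 and -1.11. Among the 40 calls, 21 passed a stricter test against a 2-fold change (limma treat).

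The scaling of the libraries touches every value here. Summed FPKM averaged 480159 in Unstimulated and 639396 in TCR, so when each library was rescaled to a common sum (the TPM scale) the median of all genes moved to -0.41 in this comparison. The median of the 57 genes lay 1.16 below the median gene as deposited, 1.17 below it on the TPM scale and 1.09 below it after quantile normalisation, on the log2 scale. The median of all genes moved to 0.19 in TCR + PI3Kdi against TCR and to 0.26 in TCR + MEKi against TCR when rescaled in this way, and the median of the 57 genes lay 0.35 and 0.45 above the median gene as deposited, and 0.36 and 0.45 above it on the TPM scale.

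**Figure D1:**
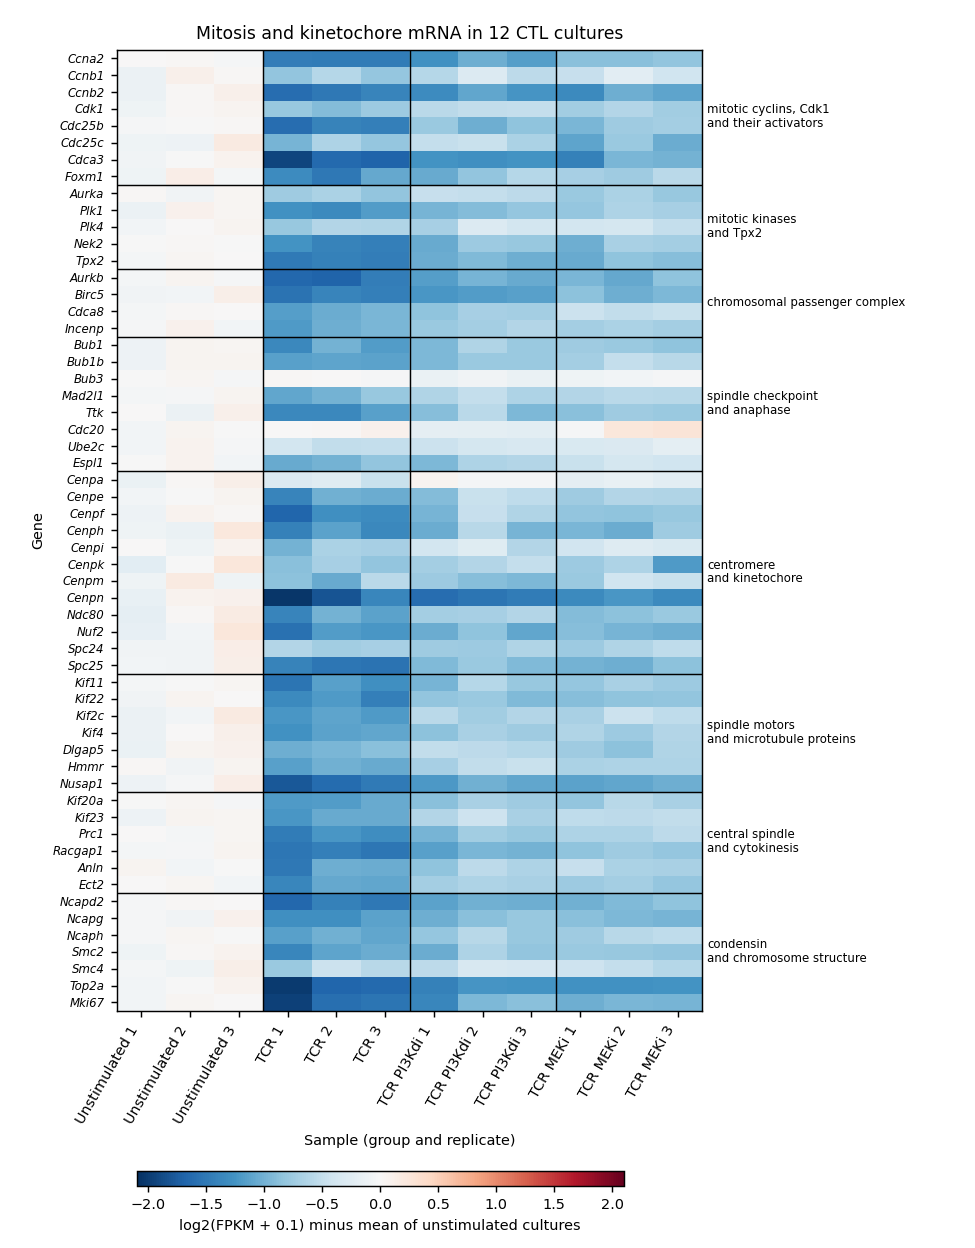
Each row is 1 of the 57 genes and each column 1 of the 12 cultures, and the colour gives log2(FPKM + 0.1) minus the gene's mean over the 3 Unstimulated cultures. The TCR columns are the darkest blue in most rows, the columns of both inhibitors are paler, and the rows of Bub3 and Cdc20 stay near white.

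Genes of this kind often share promoter letters: the CHR element TTTGAA, which is bound by the MuvB complexes that repress or activate late cell cycle genes, and the CCAAT box, which is bound by NF-Y. Both were searched on both strands (TTTGAA or TTCAAA, and CCAAT or ATTGG, where matches may share bases) in RefSeq windows of GRCm38.p6 from 250 bases before to 50 bases after each start, for the 47 of 57 genes with a window. The CHR letters were in 32 of the 47 windows (68.1%), against 12% of 8332 windows of genes in the table and 18.1% of 27025 windows in all. The CCAAT letters were in 38 windows (80.9%), against 39.5% and 37.9%. Both were in 29 windows (61.7%), against 5.22% and 7.12%. The windows of 6 members with large falls that hold both kinds of letters, and of Cdc20, which holds them and did not fall, are shown from 150 bases before the start to the end of the window. Large falls also came without them: the windows of Nusap1 (log2 fold change -1.63 in TCR) and Birc5 (-1.46) held 0 matches of either kind, and both fell more than Kif11 and Ttk, which are printed. Capitals mark the CHR and CCAAT letters on either strand, and Cdc20 was chosen after its values were seen.

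Top2a: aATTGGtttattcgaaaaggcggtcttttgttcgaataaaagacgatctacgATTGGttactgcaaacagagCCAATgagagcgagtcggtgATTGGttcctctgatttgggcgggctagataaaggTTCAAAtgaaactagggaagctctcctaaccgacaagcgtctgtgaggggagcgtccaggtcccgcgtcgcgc
Cdca3: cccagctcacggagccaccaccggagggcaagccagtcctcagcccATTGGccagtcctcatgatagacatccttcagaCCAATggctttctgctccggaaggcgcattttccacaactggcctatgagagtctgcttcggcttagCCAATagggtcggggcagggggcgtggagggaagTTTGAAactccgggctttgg
Cenpn: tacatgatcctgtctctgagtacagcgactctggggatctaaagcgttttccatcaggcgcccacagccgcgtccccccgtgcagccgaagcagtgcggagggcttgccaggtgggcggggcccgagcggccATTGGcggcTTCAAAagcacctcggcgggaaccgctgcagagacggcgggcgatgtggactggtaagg
Racgap1: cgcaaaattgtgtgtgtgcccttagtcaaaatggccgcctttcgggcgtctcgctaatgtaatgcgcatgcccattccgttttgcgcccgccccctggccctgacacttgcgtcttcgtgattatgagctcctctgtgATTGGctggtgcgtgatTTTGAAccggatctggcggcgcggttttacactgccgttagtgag
Kif11: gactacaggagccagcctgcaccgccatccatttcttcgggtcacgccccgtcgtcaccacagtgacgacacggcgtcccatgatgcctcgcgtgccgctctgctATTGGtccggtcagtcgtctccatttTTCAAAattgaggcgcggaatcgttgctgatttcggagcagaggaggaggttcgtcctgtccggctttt
Ttk: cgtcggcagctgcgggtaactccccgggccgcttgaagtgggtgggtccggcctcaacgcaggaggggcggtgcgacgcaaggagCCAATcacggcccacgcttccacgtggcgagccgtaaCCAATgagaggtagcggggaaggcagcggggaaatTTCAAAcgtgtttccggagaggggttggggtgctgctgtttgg
Cdc20: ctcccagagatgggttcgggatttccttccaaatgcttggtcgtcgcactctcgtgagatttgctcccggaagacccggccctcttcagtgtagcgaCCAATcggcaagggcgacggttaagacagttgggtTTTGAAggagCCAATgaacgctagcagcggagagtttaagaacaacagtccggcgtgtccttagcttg

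The 7 stretches lie at chr11:99024140-99024339 on the minus strand (Top2a), chr6:124830026-124830225 on the plus strand (Cdca3), chr8:116921590-116921789 on the plus strand (Cenpn), chr15:99651607-99651806 on the minus strand (Racgap1), chr19:37376232-37376431 on the plus strand (Kif11), chr9:83834539-83834738 on the plus strand (Ttk) and chr4:118437294-118437493 on the minus strand (Cdc20). With the start base counted as 0, the CHR letters closest to the start began at -23 in Top2a, 30 in Cdca3, -9 in Cenpn, 5 in Racgap1, -19 in Kif11, 7 in Ttk and -18 in Cdc20. The printed stretch of Top2a holds 4 CCAAT matches, that of Cdca3 holds 3, those of Ttk and Cdc20 hold 2 each, and those of Cenpn, Racgap1 and Kif11 hold 1 each. Members with CHR letters had a median log2 fold change of -1.19 in TCR (32 genes) and members with a window and no CHR letters one of -1.14 (15 genes). The windows of Bub3, Ube2c and Cenpa, which are described below for their small changes, also held both kinds of letters. These matches describe the windows and do not show a bound site.

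Top2a, which encodes DNA topoisomerase IIα (chr11:98992943-99024189, mm10, minus strand), was both the most abundant member in Unstimulated cells and the one that fell most. It was at 147, 151 and 160.5 FPKM in the Unstimulated cultures, at 37.8, 48.1 and 49.4 in TCR, at 56.9, 64.6 and 64.2 in TCR + PI3Kdi and at 63.3, 63.0 and 64.0 in TCR + MEKi. The TCR cultures were the lowest, both inhibitor groups lay above them and far below Unstimulated, and the inhibitor groups overlapped. The log2 fold change in TCR was -1.77 ± 0.08 (SE), a 3.41-fold fall (adjusted p = 1e-10). Mki67, the gene of the proliferation marker Ki-67, fell from 52.1 ± 1.96 to 16.1 ± 2.53 FPKM (mean ± SD, n = 3 here and below).

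Among the 8 genes of the mitotic cyclins, Cdk1 and their activators, all 8 fell in TCR and 5 were called. Ccna2, for cyclin A2, was the most abundant of them at 78.9, 80.0 and 76.9 FPKM in Unstimulated, and it was at 28.7, 28.2 and 28.5 FPKM in TCR. These cultures differed little within either group, and the log2 fold change was -1.46 ± 0.06. Cdca3, which encodes a trigger of mitotic entry, had the largest fall of the role, from 45.4, 47.4 and 50.3 FPKM to 12.5, 15.2 and 14.9 FPKM (log2 fold change -1.75 ± 0.11). Ccnb1, for cyclin B1, fell least, from 54.9 ± 4.40 to 32.7 ± 3.07 FPKM (-0.75 ± 0.10), while Ccnb2, for cyclin B2, fell from 67.9 ± 5.61 to 24.1 ± 1.81 FPKM (-1.49 ± 0.09). Foxm1, for a transcription factor that switches on late cell cycle genes, went from 14.3 ± 1.24 to 5.81 ± 0.887 FPKM (-1.30 ± 0.12). Of the exon sequence of Ccnb1, 14.9% of 100-base stretches also occur in the pseudogene Ccnb1-ps, and 510 exon bases of Ccna2 overlap Exosc9 on the other strand, so reads there could be counted elsewhere.

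The 4 mitotic kinase genes and Tpx2 all fell, 3 of these 5 genes by more than 2-fold. Plk1, for polo-like kinase 1, which acts in centrosome maturation and cytokinesis, was at 44.4, 51.7 and 49.7 FPKM in Unstimulated and at 20.1, 19.1 and 21.4 FPKM in TCR (log2 fold change -1.26 ± 0.07). Tpx2, for the activator of Aurora A, fell by 1.46 ± 0.07 on the log2 scale, from 39.0 ± 1.32 to 14.1 ± 0.336 FPKM. Plk4, for the kinase that starts centriole duplication, fell least, from 17.8 ± 0.760 to 11.04 ± 0.778 FPKM, and stayed under 2-fold.

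The chromosomal passenger complex, which corrects wrong attachments and guides cytokinesis, fell as a whole, with 4 of 4 genes called. Aurkb, its kinase Aurora B, was at 40.5, 43.3 and 40.9 FPKM in Unstimulated and at 13.1, 12.9 and 15.1 FPKM in TCR (log2 fold change -1.59 ± 0.08). Incenp, its scaffold, lay just inside the 2-fold threshold at -1.05 ± 0.07, and Mad2l1 of the spindle checkpoint lay just outside it at -0.96 ± 0.07.

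Of the 8 spindle checkpoint and anaphase genes 6 fell and 3 were called, and their log2 fold changes ran from -1.28 to 0.03. Ttk, for the Mps1 kinase that starts checkpoint signalling, fell most, from 7.88, 7.20 and 8.38 FPKM to 2.99, 3.01 and 3.47 FPKM (log2 fold change -1.28 ± 0.12). Ube2c, for the ubiquitin-conjugating enzyme of the anaphase-promoting complex, was at 126, 139 and 129 FPKM in Unstimulated and at 100.5, 91.2 and 92.5 FPKM in TCR, a fall without overlap but under 2-fold (-0.47 ± 0.06). 592 exon bases of Ube2c overlap Tnnc2 on the other strand.

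Bub3 and Cdc20 were the members that did not fall. Bub3 (chr7:131560222-131571895, mm10, plus strand), for a checkpoint protein that brings Bub1 and BubR1 to kinetochores, was at 91.5, 94.6 and 91.2 FPKM in Unstimulated and at 94.3, 92.9 and 90.9 FPKM in TCR. Cdc20 (chr4:118432901-118437352, mm10, minus strand), for the activator of the anaphase-promoting complex, was at 50.6, 54.7 and 52.0 FPKM in Unstimulated and at 52.5, 53.1 and 55.5 FPKM in TCR. The groups overlapped for both genes. The log2 fold change of Bub3 was 0.00 ± 0.04 (adjusted p = 0.94) as deposited, but -0.41 after rescaling to TPM and -0.16 after quantile normalisation. That of Cdc20 was 0.03 ± 0.07 (adjusted p = 0.67), but -0.38 after rescaling to TPM and -0.08 after quantile normalisation. On the TPM scale both passed the test as lower, and after quantile normalisation Bub3 did. Measured against the median gene, which moved by a like amount on the TPM scale, neither fell as the other members did.

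**Figure D2:**
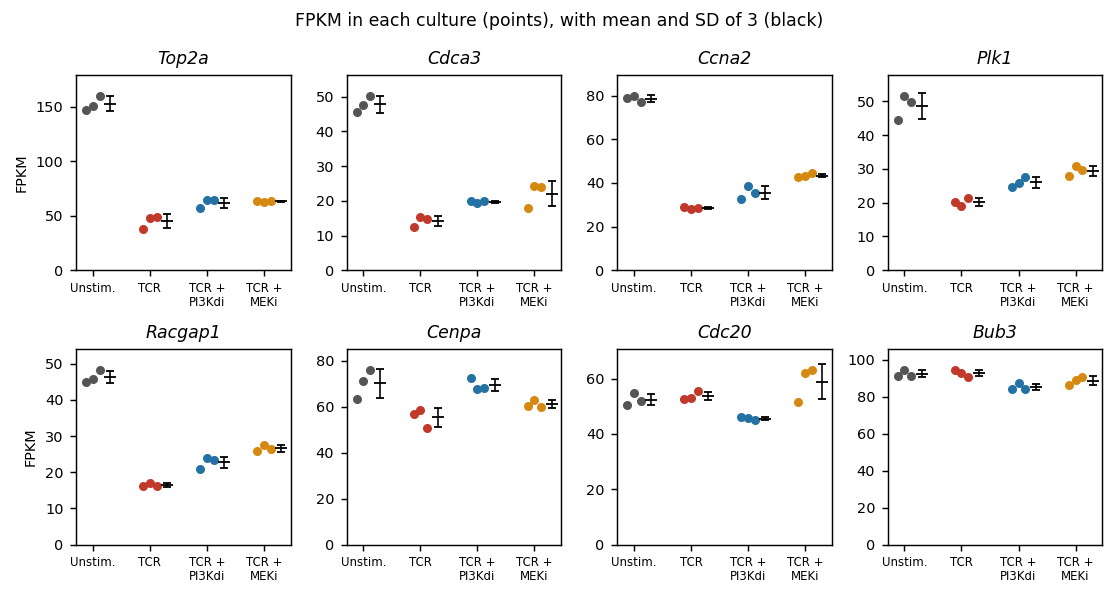
FPKM of 8 genes in each of the 12 cultures (points, replicates 1 to 3 from left to right), with the mean and SD of each group of 3 in black. Top2a, Cdca3, Ccna2, Plk1 and Racgap1 drop in TCR and lie between TCR and Unstimulated with either inhibitor, whereas Cenpa changes little and Cdc20 and Bub3 stay at 44.9 FPKM or more in every culture.

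All 12 centromere and kinetochore genes fell, 7 of them by more than 2-fold. Cenpn, for the protein that reads the centromeric nucleosome, fell most, from 11.4, 13.3 and 13.5 FPKM to 3.01, 3.53 and 4.84 FPKM (log2 fold change -1.74 ± 0.14). Cenpa, for the histone H3 variant that marks the centromere, was the most abundant of the role and fell least, from 63.2, 71.0 and 76.0 FPKM to 56.9, 58.5 and 50.6 FPKM (-0.34 ± 0.07, adjusted p = 0.00057). Within the NDC80 complex, which binds microtubules directly, the log2 fold changes were -1.17 ± 0.11 for Ndc80, -1.32 ± 0.12 for Nuf2, -1.49 ± 0.08 for Spc25 and -0.68 ± 0.08 for Spc24, the subunit that stayed under 2-fold.

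All 7 spindle motors and microtubule proteins fell and 6 were called. Kif11, for the motor Eg5 that pushes the spindle poles apart, fell from 36.4, 37.2 and 38.4 FPKM to 12.9, 16.9 and 15.2 FPKM (log2 fold change -1.32 ± 0.10). Nusap1, for a protein that bundles spindle microtubules near chromosomes, fell by 1.63 ± 0.09 on the log2 scale. Dlgap5, for a factor that stabilises kinetochore fibres, was the gene of the role under 2-fold (-0.95 ± 0.08).

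The 6 central spindle and cytokinesis genes were all called lower, with log2 fold changes from -1.49 to -1.11. Racgap1 and Kif23 encode the partners of the centralspindlin complex. Racgap1 was at 45.0, 45.7 and 48.3 FPKM in Unstimulated and at 16.1, 17.1 and 16.2 FPKM in TCR (-1.49 ± 0.06), and Kif23 fell from 16.1 ± 1.04 to 7.39 ± 0.471 FPKM (-1.11 ± 0.08).

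Of the 7 genes for condensin and chromosome structure, all 7 fell and 6 were called. The exception was Smc4, a core subunit of both condensins, which fell from 70.6, 68.9 and 79.9 FPKM to 42.6, 53.3 and 48.5 FPKM (log2 fold change -0.61 ± 0.09), while its partner Smc2 fell by 1.17 ± 0.10 on the log2 scale.

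**Figure D3:**
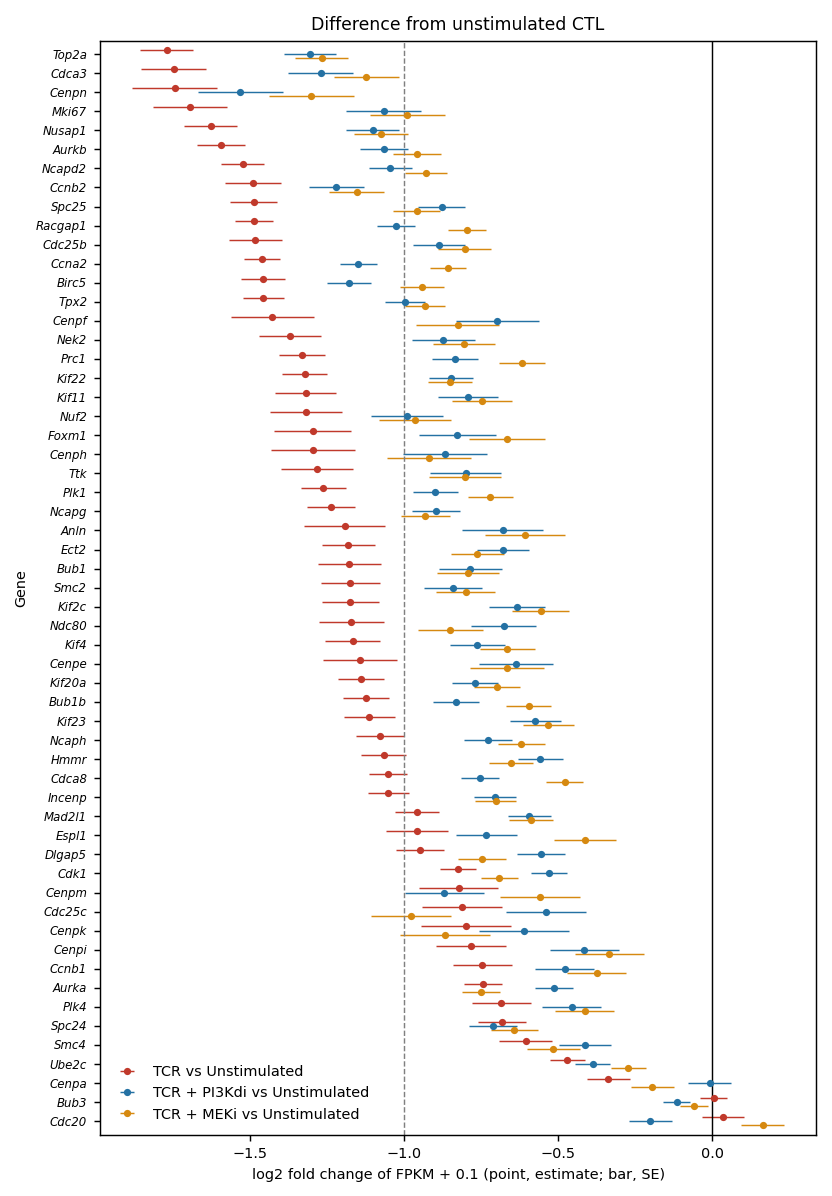
Log2 fold change against Unstimulated of each of the 57 genes, sorted by the change in TCR (red), with TCR + PI3Kdi in blue and TCR + MEKi in orange, bars for the SE and a dashed line at a 2-fold fall. In TCR 40 genes lie left of the dashed line with an adjusted p under 0.05, against 11 with PI3Kdi and 5 with MEKi.

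The second comparison set TCR + PI3Kdi against TCR. As no group had an inhibitor without peptide, a smaller fall and an effect of either inhibitor apart from the peptide cannot be told apart. Of the 57 genes, 44 rose with the inhibitor (77.2%), against 12.7% of all genes, and 1 fell, against 12.8% of all genes. The changes were small: in the limma test 0 of the 57 were called at 2-fold in either direction, against 0.499% of all genes called higher and 1.38% called lower, while at an unadjusted p under 0.05 49 were higher and 2 lower, against 18.8% and 18.9% of all genes. The 3 inhibitor cultures lay above all 3 TCR cultures for 46 genes, against 19% of all genes. The median log2 fold change of the 57 was 0.37, against 0.02 over all genes, and 0.34 to 0.43 in fits that each left out a culture.

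The largest rise with PI3Kdi was that of Cenpf, for a large kinetochore protein that appears late in the cell cycle, at 2.05, 2.68 and 2.61 FPKM in TCR and at 3.35, 4.77 and 4.30 FPKM with the inhibitor (1.66-fold, log2 0.73 ± 0.13, adjusted p = 0.0012). The spindle motor role and the cytokinesis role rose as a whole, in 7 of 7 and 6 of 6 genes, and the chromosomal passenger complex in 4 of 4. Racgap1 was at 20.98, 23.9 and 23.3 FPKM, above every TCR culture (log2 fold change 0.46 ± 0.06). Cenpa reached 72.4, 67.8 and 68.2 FPKM (0.33 ± 0.07), which overlapped the Unstimulated cultures. Of the kinetochore genes 7 of 12 rose, and Cenpn, with a log2 fold change of 0.21 ± 0.14, did not pass.

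Cdc20 was the member that fell with PI3Kdi, to 46.1, 45.6 and 44.9 FPKM, below every TCR and every Unstimulated culture (log2 fold change -0.24 ± 0.07, adjusted p = 0.021). The difference no longer passed the test after rescaling to TPM or quantile normalisation, nor without TCR replicate 3 or TCR + PI3Kdi replicate 2 or 3, where 0 members were lower. Bub3 was also below every TCR culture, at 84.2, 87.3 and 84.2 FPKM (-0.12 ± 0.04, adjusted p = 0.061), but at 0.06 after rescaling to TPM and 0.01 after quantile normalisation.

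The third comparison set TCR + MEKi against the same TCR cultures, so that the 2 inhibitor comparisons are not independent of each other or of the first. Of the 57 genes, 46 rose with MEKi (80.7%), against 18.9% of all genes, and 0 fell, against 18.2% of all genes. Again 0 were called at 2-fold by limma, against 0.98% of all genes called higher and 2.51% called lower, with 48 higher and 0 lower at an unadjusted p under 0.05, against 23.9% and 22.5% of all genes. All 3 inhibitor cultures lay above all 3 TCR cultures for 49 genes, against 24.6% of all genes. The median log2 fold change was 0.46, against 0.01 over all genes, and 0.38 to 0.49 in fits that each left out a culture.

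Prc1, for a protein that crosslinks microtubules of the central spindle, rose most with MEKi, from 14.6, 17.3 and 16.4 FPKM to 25.8, 25.9 and 27.5 FPKM (1.64-fold, log2 0.72 ± 0.07, adjusted p = 4.8e-06). Racgap1 reached 25.8, 27.6 and 26.5 FPKM (0.69 ± 0.06) and Ccna2 42.8, 42.9 and 44.3 FPKM (0.60 ± 0.06), each above every TCR culture. The 6 cytokinesis genes and the 4 genes of the chromosomal passenger complex rose without exception. Cdk1 was at 29.2, 27.2 and 29.9 FPKM in TCR and at 30.6, 33.4 and 30.8 FPKM with MEKi (0.13 ± 0.06, adjusted p = 0.090), with no overlap. Aurka, for Aurora A kinase, was at 21.3, 22.8 and 20.3 FPKM in TCR and at 20.8, 22.6 and 20.7 FPKM with MEKi (-0.01 ± 0.06, adjusted p = 0.96), a difference that was 0.26 on the TPM scale.

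**Figure D4:**
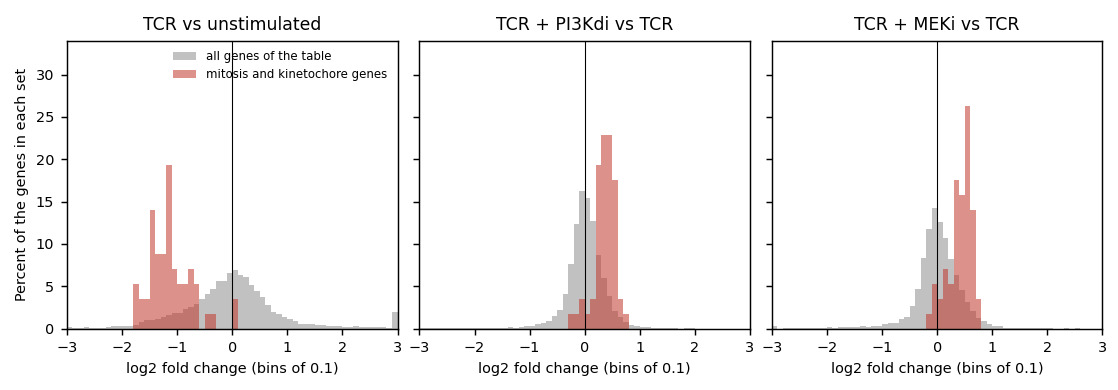
Percent of the 57 mitosis and kinetochore genes (red) and of all 11022 genes (grey) in bins of 0.1 on the log2 fold change axis, for TCR against Unstimulated, TCR + PI3Kdi against TCR and TCR + MEKi against TCR, with values beyond the axis placed in the outermost bins. The red bars centre near -1.17, 0.37 and 0.46, while the grey bars centre near 0 in each panel.

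With either inhibitor most of the genes stayed below their unstimulated level. Against Unstimulated, 56 of the 57 were lower with PI3Kdi (98.2%), against 30.8% of all genes, and 55 with MEKi (96.5%), against 30.7% of all genes. The calls at 2-fold were 11 with PI3Kdi (19.3%), against 7.43% of all genes, and 5 with MEKi (8.77%), against 6.46% of all genes, a share near that background. On the TPM scale, where the median of all genes moved to -0.22 and -0.15, these calls were 28 and 19. The number of calls with MEKi was 8 without Unstimulated replicate 1 and 8 without TCR + MEKi replicate 3. The median log2 fold changes were -0.77 with PI3Kdi and -0.75 with MEKi, against -1.17 without inhibitor. The 5 genes called in the MEKi group were Ccnb2, Cdca3, Cenpn, Nusap1 and Top2a. Cenpa was the member that did not differ from Unstimulated with PI3Kdi (-0.01 ± 0.07, adjusted p = 0.92). Cdc20 was at 51.5, 62.0 and 63.2 FPKM with MEKi, 0.16 ± 0.07 above Unstimulated on the log2 scale (adjusted p = 0.055, and 0.040 with replicate number as a block). This difference is as deposited, and the median of all genes moved by a like amount, to -0.15, on the TPM scale.

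The inhibitors were also compared directly, at their own doses and the same 4 h. In TCR + MEKi against TCR + PI3Kdi, 8 of the 57 genes were higher (14.04%), against 14.5% of all genes, and 2 were lower (3.51%), against 14.4% of all genes. The share that was higher is near the background, so it says nothing particular of these genes. 0 of the 57 were called at 2-fold by limma, against 1.39% of all genes called higher and 1.71% called lower, and at an unadjusted p under 0.05 10 were higher and 5 lower, against 20.1% and 20.4% of all genes. The median log2 difference was 0.07, within a range of 0.00 to 0.11 when a culture was left out.

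The genes higher with MEKi than with PI3Kdi were Cdc20, Espl1 (the protease separase, which cuts cohesin), Ccna2, Cdca8 and Birc5 (subunits of the chromosomal passenger complex), Bub1b (the checkpoint protein BubR1), Racgap1 and Prc1. The genes lower with MEKi were Cdc25c, for a phosphatase that activates Cdk1, and Aurka. Ccna2 was at 32.6, 38.7 and 35.2 FPKM with PI3Kdi, below every MEKi culture (log2 difference 0.29 ± 0.06, adjusted p = 0.0018). Cdc25c was at 4.02, 4.11 and 3.58 FPKM with PI3Kdi and at 2.61, 3.28 and 2.71 FPKM with MEKi, again without overlap (-0.44 ± 0.13, adjusted p = 0.020). The count of genes that were higher fell to 3 without TCR + PI3Kdi replicate 1 and to 4 without TCR + MEKi replicate 2 or 3, and that of genes that were lower fell to 1 without TCR + PI3Kdi replicate 1 or 2 or TCR + MEKi replicate 1 or 3. Cdc20, Ccna2, Cdca8 and Aurka passed in 6 of 6 fits that left out a culture. On the TPM scale, however, 0 genes were lower with MEKi, so neither Aurka nor Cdc25c passed there.

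**Figure D5:**
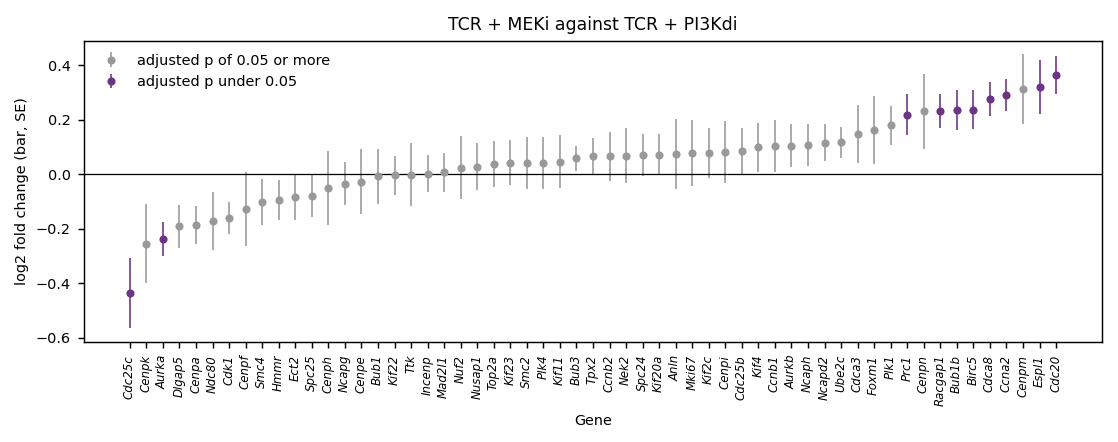
Log2 difference of TCR + MEKi minus TCR + PI3Kdi for each of the 57 genes in order, with bars for the SE. The 10 genes with an adjusted p under 0.05 (purple) lie towards the ends, from Cdc25c at -0.44 and Aurka at -0.24 to Cdc20 at 0.36. Most genes that did not pass lie within 0.2 of 0, but some lie among the purple ones.

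Related gene lists were described by count, beside the shares of all genes given above. In TCR against Unstimulated these were 34.9% lower, 33.6% higher and 11.1% called lower, and for genes that were higher they were 12.7% with PI3Kdi against TCR and 18.9% with MEKi against TCR. Of 56 measured genes of 60 in a further list of mitosis genes, 48 fell in TCR and 27 were called lower, with a median log2 fold change of -0.99. The largest fall was that of Fam64a, from 31.2 to 3.72 FPKM (log2 fold change -3.04), chosen after its values were seen. With PI3Kdi 36 of the 56 rose and 1 fell, and with MEKi 40 rose and 1 fell. Of 40 genes for DNA replication and E2F targets, which act before mitosis, 40 fell in TCR and 33 were called (median -1.32). With PI3Kdi 18 of the 40 rose (median 0.20) and with MEKi 33 (median 0.39), and 0 fell with either. In the direct comparison 15 of the 40 were higher with MEKi, against 14.5% of all genes, and 0 lower, against 14.4%. Among 13 genes for core subunits of the anaphase-promoting complex and its coactivator Fzr1, 6 fell, 2 rose and 0 were called in TCR (median -0.05). Fzr1 was among those that fell in TCR (log2 fold change -0.41) and among those that rose with MEKi (0.44). Of these 13, 1 rose and 0 fell with PI3Kdi, and 3 rose and 2 fell with MEKi.

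Of 10 genes for cohesin, the ring that holds sister chromatids, and for its loaders and regulators, 8 fell in TCR, with 0 calls and a median of -0.58. Of these 10, 2 rose with PI3Kdi and 3 with MEKi. The kleisin Rad21 went from 79.7 to 43.8 FPKM in TCR (log2 fold change -0.87). Among 14 genes for MuvB subunits, B-MYB, pocket proteins and E2F partners, 10 fell, 1 rose and 4 were called lower in TCR (median -0.65), 5 rose and 1 fell with PI3Kdi, and 6 rose and 0 fell with MEKi. Mybl2, for the B-MYB factor that joins MuvB on CHR promoters, went from 17.9 to 6.32 FPKM in TCR (log2 fold change -1.49) and was at 6.47 FPKM with PI3Kdi and 10.5 FPKM with MEKi. Of the 5 MuvB core genes, Lin9 and Rbbp4 fell in TCR, with log2 fold changes of -0.65 and -0.69 and limma adjusted p of 0.00099 and 1.9e-07. Lin37, Lin52 and Lin54 had log2 fold changes of -0.16, -0.25 and -0.10 and did not pass the test.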

How the data were processed

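The deposited table held FPKM per gene for 11022 genes in 12 cultures. Per the methods and the labels, the authors made stranded mRNA libraries from 300 ng of RNA and sequenced 100-base read pairs on 1 lane. The submitters' processing notes and methods name mm10, STAR 2.4.2a and Subread 1.5.0 with RefSeq genes, removal of low counts by filterByExpr, TMM scaling, and FPKM from the edgeR rpkm function on TMM-normalised counts and summed exon length. Whether counting used the strand is not given in the sources used here, and 18 of the 57 genes share exon bases with another gene, 15 of them on the other strand. FPKM are not counts, so no count test was run. Only 41.5% to 61.7% of low values came out whole (tolerance 0.15 of a read, which 30% would meet by chance), so reads were not recovered and the depth is approximate.

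A mean per group was fitted by limma 3.58.1 (R 4.3.3, eBayes with trend) to log2(FPKM + 0.1) of all genes and all 12 cultures, without a filter on low values and without a block. Adding 0.1 understates changes at low FPKM. Benjamini-Hochberg adjustment ran over all genes, and 6 contrasts were made. On simulated data for TCR vs Unstimulated, 200 of 200 genes changed 4-fold were recovered with 3 false calls among 11022 genes. The changed genes had a mean FPKM of at least 1, and a hit needed an adjusted p under 0.05 and more than 2-fold. The simulation does not cover smaller changes or counts at an adjusted p alone. Python 3.11.15, NumPy 2.4.6, pandas 2.3.3 and matplotlib 3.10.9 made the summaries and plots. Columns were assigned to cultures by their headers, and those that could not be numbered 0. Gene positions came from GENCODE M21 (mm10), where 10307 of 11022 genes matched. Alternatives were pseudocounts of 1 and 0.01, a mean FPKM of at least 1, the TPM scale, quantile normalisation, a replicate block, the compared groups alone, no trend, limma treat, a 1.5-fold threshold and leaving out each culture. Counts at an adjusted p alone were added after seeing the data.

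Cells came from 3 mice. Whether equal numbers mark the same mouse is not stated. For cultures that share a number, departures from the mean of the group correlated at 0.24 to 0.45 in TCR + PI3Kdi vs TCR and at 0.12 to 0.18 in TCR + MEKi vs TCR. They correlated at 0.14 to 0.15 in TCR + MEKi vs TCR + PI3Kdi and at 0.12 to 0.15 in TCR + MEKi vs Unstimulated. In these comparisons each such value was above those of cultures with different numbers. In TCR vs Unstimulated they ran from 0.00 to 0.15 and in TCR + PI3Kdi vs Unstimulated from -0.06 to 0.11, and there this did not hold. The main fit left the numbers out because the study names no covariate, and counts with a replicate block are given at the end. The members and lists were chosen with earlier results of these data known. The text names, for each role, the gene with the highest unstimulated level, the largest and the smallest fall, then the genes nearest the 2-fold threshold and those above Unstimulated, 22 in all. Other members (17, by comparison) and genes of other lists were named after their values were seen.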

Additional observations from a re-analysis of the deposited data

Results flagged for a closer look

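For 10 of the 57 genes the effects of the inhibitors differed from each other, by the direct limma test of TCR + MEKi against TCR + PI3Kdi with an adjusted p under 0.05. On the log2 scale, MEKi minus PI3Kdi, Cdc25c was at -0.44 and Aurka at -0.24. The genes on the other side were Prc1 at 0.22, Racgap1 at 0.23, Bub1b at 0.24, Birc5 at 0.24, Cdca8 at 0.28, Ccna2 at 0.29, Espl1 at 0.32 and Cdc20 at 0.36. All were under 2-fold. Of the 57 genes 14.04% were higher, against 14.5% of all genes, and 3.51% lower, against 14.4% of all genes, at the same threshold. Neither share exceeded that of all genes, so the count says nothing particular of these genes. When each of the 6 inhibitor cultures was left out in turn, Aurka, Cdca8, Ccna2 and Cdc20 passed in 6 fits, Racgap1 in 4, Bub1b and Espl1 in 3, Birc5 and Cdc25c in 2 and Prc1 in 1. After rescaling to TPM, 0 genes were lower, so Aurka and Cdc25c did not pass.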

How the results depend on the processing

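The depth is approximate. Each limma p-value sets a difference against the spread within groups, which was shared by all 4 groups and moderated across genes. The cause of the changes below was not tested unless the setting itself is the cause. On the TPM scale the members' median log2 fold change was -1.59 in TCR vs Unstimulated, 0.55 in TCR + PI3Kdi vs TCR, 0.72 in TCR + MEKi vs TCR, -0.9999 in TCR + PI3Kdi vs Unstimulated and -0.90 in TCR + MEKi vs Unstimulated, and calls lower in the last 2 were 28 and 19. With a pseudocount of 1 the median in TCR vs Unstimulated was -1.08. With limma treat the calls lower were 21 in TCR, 2 in TCR + PI3Kdi and 0 in TCR + MEKi, each against Unstimulated. At 1.5-fold, 4 genes were called higher in TCR + PI3Kdi vs TCR and 12 in TCR + MEKi vs TCR, and 43 and 44 were called lower with PI3Kdi and MEKi against Unstimulated. Genes lower at an adjusted p in TCR + PI3Kdi vs TCR numbered 0 when rescaled to TPM and 0 with quantile normalisation, and in TCR + MEKi vs TCR + PI3Kdi 0 and 4. Direction turned for Bub3 in TCR vs Unstimulated (-0.41 TPM, -0.16 quantile), TCR + PI3Kdi vs TCR (0.062 and 0.0062) and TCR + MEKi vs TCR (0.20 and 0.081), for Cdc20 in TCR vs Unstimulated (-0.38 and -0.084) and for Aurka in TCR + MEKi vs TCR (0.26 and 0.0079).

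With cultures left out, genes lower at an adjusted p numbered 0 to 1 in TCR + PI3Kdi vs TCR and 1 to 3 in TCR + MEKi vs TCR + PI3Kdi, those higher in the latter 3 to 8, calls lower in TCR + MEKi vs Unstimulated 5 to 8, and genes higher there 0 to 1 (1 without Unstimulated replicate 2 or TCR + MEKi replicate 1). The log2 fold change ran from -0.0083 to 0.021 for Bub3 in TCR vs Unstimulated, from -0.045 to 0.039 for Aurka in TCR + MEKi vs TCR and from -0.081 to 0.052 for Cenpa in TCR + PI3Kdi vs Unstimulated.

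With the replicate block 55 genes fell in TCR vs Unstimulated, 46 rose in TCR + PI3Kdi vs TCR and 47 in TCR + MEKi vs TCR, 9 were higher and 2 lower in TCR + MEKi vs TCR + PI3Kdi, and 1 (Cdc20) was higher in TCR + MEKi vs Unstimulated, against 0 without it.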
